A study of Mus musculus with 10 samples.

Results

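Endothelial cells, the cells that line blood vessels, were picked out of single-cell RNA sequencing of the developing mouse lower jaw and incisor at 3 embryonic stages named by their day of gestation (E11.5, E14.5 and E16.5). The cells were chosen by their own UMI counts, so those counts describe them and test nothing. A cell was taken as endothelial when at least 2 of the 7 genes Cdh5, Kdr, Flt1, Emcn, Plvap, Cd34 and Pecam1 had a unique molecular identifier (UMI, the tag that counts one captured RNA molecule). It also had to hold fewer than 3 of the epithelial genes Epcam, Krt5, Krt14, Dsp and Dsc3 and fewer than 2 of the immune genes Tyrobp, Fcer1g and C1qb. Of 17175 cells that passed a minimum of 700 genes and a maximum of 20% mitochondrial UMIs, 422 met this rule: 109 of 6573 at E11.5, 185 of 6091 at E14.5 and 128 of 4511 at E16.5. All later values set these cells beside the other cells of the same stage, or 1 stage beside another.

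All embryos were wild type NMRI mice with no treatment. The youngest tissue was the whole mandible, and at both later stages it was the lower incisor bud. Each dissected sample was digested with collagenase P on its own, and droplet libraries were made from the 3′ ends of transcripts. The labels list 4, 4 and 2 samples for the 3 stages, but each stage was deposited as 1 matrix whose barcodes do not tell the samples apart. Each stage was therefore 1 sample, no replicate spread could be measured, and no test was possible between groups of cells or between stages. Every 95% interval given here (exact Poisson for levels, Clopper-Pearson for shares) covers counting error only. Stage, litter, dissected tissue and library cannot be told apart. The stages shared few barcodes: 13 between E11.5 and E14.5, 16 between E14.5 and E16.5, and 17 between E11.5 and E16.5, of 8708, 8192 and 5719 barcodes in the 3 matrices.

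Blood vessels grow through vascular endothelial growth factor (VEGF), which is released by surrounding tissue and read by the receptors Kdr and Flt1 on endothelial cells. Notch signalling through the ligand Dll4 separates leading tip cells from followers and takes part in arterial identity, while the Tie receptors, the apelin receptor and blood flow shape the later network. ETS family factors such as Erg and Fli1 and the SoxF factors Sox7, Sox17 and Sox18 are the best known regulators of endothelial genes. In the tooth, vessels surround the germ and later enter the dental papilla.

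Promoter sequence was examined because some of the genes that set these cells apart were raised at all 3 stages. Of the 25 genes among the 15 with the largest ratio of endothelial to other cells at any stage, 17 had a promoter in the RefSeq table of build GRCm38.p6, which gives 250 bases before to 50 bases after each start. The ETS motif ACAGGAAG, searched on both strands, stood in the window of 1 of these 17 genes (5.88%), Egfl7, and in 4.06% of all 27025 genes of the table. The other ETS motif searched, ACCGGAAG, stood in none of the 17 and in 2.60% of all genes. With a window counted for either ETS motif, the shares were 5.88% of the 17 and 6.53% of all genes, and the SOX motif AACAATGG stood in none and in 1.22%. Egfl7, an extracellular protein made by endothelial cells, lies on chromosome 2 between positions 26580014 and 26593120 on the plus strand. The bases before each of its listed starts that hold the motif are shown 5′ to 3′, with the motif in capitals. The first motif ends 84 bases before its start, and the second ends 75 bases before its start.
Egfl7 upstream of first start, chr2:26580833-26581082, plus strand: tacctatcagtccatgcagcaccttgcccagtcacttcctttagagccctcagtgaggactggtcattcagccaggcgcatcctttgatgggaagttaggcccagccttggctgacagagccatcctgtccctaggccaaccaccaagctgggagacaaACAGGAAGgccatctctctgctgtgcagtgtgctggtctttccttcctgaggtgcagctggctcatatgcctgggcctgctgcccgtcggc
Egfl7 upstream of second start, chr2:26583615-26583864, plus strand: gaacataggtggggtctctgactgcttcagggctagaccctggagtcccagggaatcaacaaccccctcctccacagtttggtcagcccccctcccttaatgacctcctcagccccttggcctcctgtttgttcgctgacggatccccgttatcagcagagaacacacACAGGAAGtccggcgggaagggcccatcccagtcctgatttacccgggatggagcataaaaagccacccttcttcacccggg
These letters are a description of the windows and say nothing of which factor binds there.

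The endothelial share of passing cells was 1.66% at E11.5 (95% interval 1.36 to 2.0), 3.04% at E14.5 (2.62 to 3.50) and 2.84% at E16.5 (2.37 to 3.37). The share at E11.5 was below both later shares, whose intervals overlapped each other, but the tissue dissected also differed between E11.5 and the later stages. The median endothelial cell held 4441 UMIs at E11.5, 3864 UMIs at E14.5 and 6020.5 UMIs at E16.5, beside 5678, 3466 and 6262 in the other cells. Single endothelial cells ranged from 1061 to 41100 UMIs at E11.5, from 1100 to 20916 at E14.5 and from 1291 to 72830 at E16.5. Summed over cells, the endothelial levels rest on 836009, 930831 and 1176307 UMIs, and those of the other cells on 46677854, 26835008 and 38847795. Levels are CPM, UMI counts of a gene scaled to a fixed total over the summed cells. At this depth a gene with no UMI could stand at up to 3.59, 3.22 and 2.55 CPM at the 3 stages, the levels that 3 counts would give.

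The name endothelial was checked with 17 pan-endothelial genes that the rule did not use, among them the Tie receptors Tie1 and Tek, the tight junction protein Cldn5 and the adhesion proteins Esam and Icam2. Summed over the 17 genes, the level was 2745 CPM in endothelial cells and 38.2 CPM in other cells at E11.5. It was 3432 and 75.7 CPM at E14.5, and 4040 and 79.3 CPM at E16.5. All 17 genes were higher in endothelial cells at every stage, and none of their intervals met those of the other cells. A UMI of 3 or more of the 17 was found in 79 of 109 endothelial cells at E11.5 (72.5%), in 165 of 185 at E14.5 (89.2%) and in 123 of 128 at E16.5 (96.1%). Among the other cells the count was 13 (0.201%), 31 (0.525%) and 72 (1.64%). No UMI of the 17 was found in 7, 4 and 1 of the chosen cells.

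**Figure D1:**
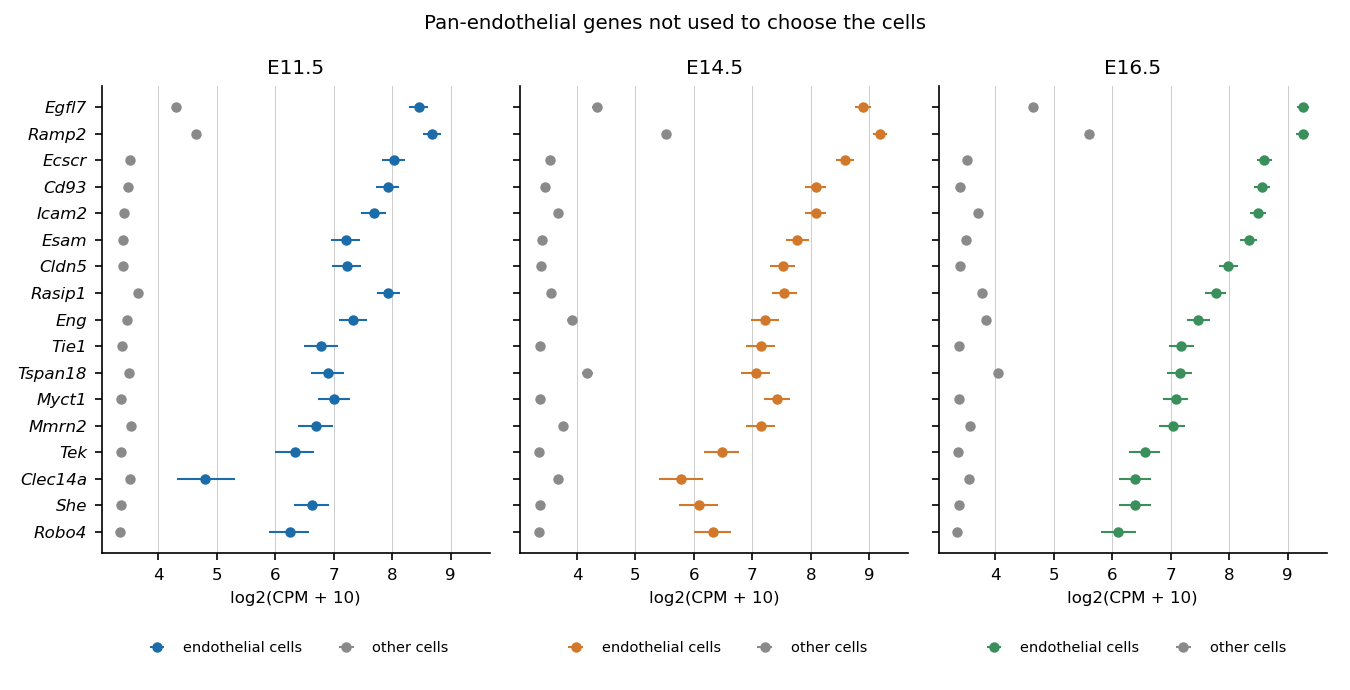
Level of each of the 17 pan-endothelial genes not used to choose the cells, as log2 of CPM with 10 added, in endothelial cells (coloured) and other cells (grey) of each stage. Lines are exact 95% Poisson intervals, where wider than the point. At each stage every coloured point lies to the right of its grey point, and Clec14a at E11.5 lies closest to its grey point.

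Values on both sides of the threshold of 2 rule genes were as follows. Cells with exactly 1 rule gene held the 17 pan-endothelial genes at 54.4 CPM at E11.5 (215 cells), 69.2 at E14.5 (159 cells) and 117 at E16.5 (89 cells). Cells with exactly 2 held them at 565 CPM (24 cells), 856 CPM (21 cells) and 226.7 CPM (8 cells). At E16.5 a single cell, with 1 pan-endothelial gene and 9 mesenchyme markers, gave 59.0% of the UMIs of these 8, and the other 7 held the genes at 513 CPM (335 to 752). Cells with 3 or more held them at 2930 CPM (85 cells), 3708 CPM (164 cells) and 4487 CPM (120 cells). Of the cells with exactly 2 rule genes, 11, 12 and 5 also held a UMI of 3 or more of 10 mesenchyme markers. All 7 rule genes were found in 36, 50 and 59 cells.

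Genes listed as markers of other cell types were counted in the chosen cells. The 10 mesenchyme markers (Prrx1, Twist1, Col1a1, Col3a1 and others) summed to 394 CPM in endothelial cells at E11.5, 757 CPM at E14.5 and 712 CPM at E16.5, beside 2130, 2834 and 2705 CPM in other cells, with Prrx1 the most abundant at E11.5 and Col3a1 later. Erythroid genes summed to 12181 CPM at E11.5, 19285 CPM at E14.5 and 6510 CPM at E16.5, beside 8203, 13311 and 7046 CPM in other cells. Few cells carried these sums: 3 cells held 87.4% of the haemoglobin counts of the endothelial cells at E11.5, 7 cells held 95.9% at E14.5, and 3 cells held 91.0% at E16.5. In the median endothelial cell haemoglobin made up 0.211%, 0.0896% and 0.0274% of UMIs, beside 0.153%, 0.0957% and 0.0240% in other cells. Of 9 immune markers only Laptm5 was found at E11.5 and E14.5, and Ptprc, Csf1r, C1qc, Fcgr3 and Cd52 were at 0 at all 3 stages. Epithelial markers summed to 2.39, 38.7 and 37.4 CPM, beside 12.2, 275 and 731 CPM in other cells. Mural markers, which mark pericytes and smooth muscle, summed to 74.2, 127 and 157 CPM, beside 92.1, 145 and 167 CPM in other cells, and Myh11 was at 0 throughout. At the later stages the sub-cluster led by mesenchyme genes, described below, carried most of this sum, with 441 CPM against 28.2 in the other endothelial cells at E14.5 and 700.5 CPM (14 cells) against 26.4 at E16.5. At E11.5 the most abundant mural gene was Abcc9, at 41.9 CPM against 0.578 CPM in other cells. The muscle list summed to at most 12.0 CPM, with Myod1 and Pax7 at 0, and the glial factor Sox10 was at 0. Neuronal markers summed to 53.8, 35.5 and 30.6 CPM, mostly Stmn2, beside 13.2, 79.2 and 132 CPM in other cells. Elavl3 was at 0. At E11.5 Stmn2 stood at 49.0 CPM in endothelial cells against 0.450 CPM in other cells, so it was higher in the chosen cells there. The part these transcripts play in the results below was not tested as such, but counts and ratios were repeated without the cells that held 4 mesenchyme genes, without the sub-cluster led by mesenchyme genes, without cells with a Pf4 UMI, and without haemoglobin and mitochondrial genes in the total. Leaving out the sub-cluster moved 61 of 105 ratios of named genes outside their counting intervals and reversed none.

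At E11.5, 706 of 7447 ranked genes (9.48%) stood at least 1 log2 unit higher in endothelial cells than in other cells, and 425 (5.71%) stood as far below. At E14.5 the numbers were 541 (9.67%) and 302 (5.4%) of 5592, and at E16.5 they were 655 (8.03%) and 527 (6.46%) of 8156. A gene was ranked when at least 10% of the cells of either group held a UMI and both groups together held at least 50 counts. The ratio is of CPM with 10 CPM added to both sides, which understates the difference of genes at low levels, and the 15 rule genes were left out. The median over all ranked genes was -0.06, -0.01 and -0.08 at the 3 stages. Without the sub-cluster led by mesenchyme genes, 816, 644 and 744 genes were as far above and 628, 458 and 809 as far below. The same 365 genes were past the fold upward at all 3 stages, of 5388 ranked at all 3 (6.77%). Among those 5388 genes, 605, 486 and 496 were past it upward at the successive stages, of which the 365 made up 60.3%, 75.1% and 73.6%. A gene that is high in endothelial cells alone can be ranked only through them, so the counts and medians of lists below cover all listed genes that the rule did not use, ranked or not. Over all detected genes with no minimum, 4.02%, 3.35% and 3.5% were past the fold upward at the 3 stages and 2.28%, 2.36% and 2.97% downward.

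With 10 CPM added, Gng11, a G protein gamma subunit, had the largest ratio of the ranked genes at every stage. Gng11 stood at 1437 CPM at E11.5, 1790 CPM at E14.5 and 1699 CPM at E16.5, beside 19.7, 31.8 and 30.3 CPM in other cells. Its log2 ratio was 5.61, 5.43 and 5.41. This rank depends on the added CPM. By the levels alone, Cd93, given below, stood further apart than Gng11 at every stage. Thinned to 2000 UMIs a cell, Gng11 was found in 72.5%, 81.3% and 86.8% of endothelial cells and in 2.92%, 7.12% and 7.0% of mesenchymal cells. Those mesenchymal cells were the other cells with at least 4 of 6 collagen and mesenchyme genes. Their median depth was 7524, 3628 and 6436 UMIs before thinning. Their shares are given below for comparison and include their own expression as well as any stray RNA. Thinning left out 29, 35 and 7 endothelial cells that were shallower than this.

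Beside Gng11, 7 further genes were among the 15 largest ratios at all 3 stages. Plxnd1, a receptor for semaphorins that guides vessels, stood at 544, 374 and 472 CPM (other cells 3.56, 6.48 and 9.65). Cd93, a membrane glycoprotein of endothelium, stood at 232, 261 and 369 CPM (other cells 1.11, 0.894 and 0.489). Ctla2a, a protease inhibitor, stood at 234, 436 and 372 CPM (other cells 2.87, 1.56 and 1.21). For each of these genes the level in other cells was under 10 CPM at every stage. The remaining genes of this set were the adhesion gene Icam2, the receptor gene Adgrf5, the junctional gene Ecscr and the basement membrane collagen gene Col15a1. Col15a1 was nearly level over the stages, at 213, 218 and 210 CPM. The other 17 of the 25 genes were among the first 15 at 1 or 2 stages. They were Igfbp3 (log2 ratio 4.57), S100a16, Tagln2, Rasip1 (4.28), Tmem255a and Cavin3 at E11.5, Crip2 at the first pair of stages, Gimap6, Samsn1 and Sparcl1 at E14.5, Egfl7, Esam and Asb4 at the later pair, and Cldn5 (4.59), Pcdh17, Cav1 (4.39) and Aplnr (4.18) at E16.5. Egfl7, whose upstream sequence is given above, stood at 341, 464 and 603 CPM, beside 9.75, 10.4 and 14.9 CPM in other cells.

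Of 18 listed transcription factors of endothelium, 16 were past the fold upward at every stage, all but Etv2 and Foxc2, and the median log2 ratio of the 18 was 2.31, 1.87 and 2.68. Erg, an ETS factor, stood at 45.5, 48.3 and 60.4 CPM, beside 0.900, 1.30 and 1.24 CPM in other cells. Ets1 stood at 323, 255 and 340 CPM, beside 14.9, 14.1 and 10.6 CPM. Fli1 was less restricted at E11.5, where other cells held it at 60.5 CPM against 156 CPM in endothelial cells, than at E14.5 (12.4 against 133 CPM) and at E16.5 (5.53 against 98.6 CPM). Mecom, a zinc finger factor, was at a like level in endothelial cells at all stages (96.9, 89.2 and 95.2 CPM), whereas other cells held 114 CPM at E11.5, 2.38 CPM at E14.5 and 0.515 CPM at E16.5.

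Of the SoxF factors, Sox18 was lowest in CPM at E14.5 beyond counting error on both sides. Sox18 stood at 138 CPM at E11.5 (95% interval 114 to 165), 30.1 at E14.5 (19.99 to 43.5) and 121 at E16.5 (102 to 142). Its E14.5 interval met neither of the other 2, and other cells held at most 2.08 CPM at any stage. The log2 ratio was -1.88 (-2.37 to -1.39) from E11.5 to E14.5 and 1.71 (1.23 to 2.18) from E14.5 to E16.5. Thinned to equal depth, Sox18 was found in 16.2%, 6.0% and 24% of endothelial cells and in 0.0573%, 0.176% and 0.603% of mesenchymal cells. The endothelial intervals of E11.5 and E14.5 then overlapped (8.95 to 26.2% and 2.78 to 11.1%). Sox7 stood at 45.5, 25.8 and 100 CPM, with overlapping intervals at E11.5 and E14.5 (32.2 to 62.4 and 16.52 to 38.4 CPM). Its ratio from E14.5 to E16.5 was 1.62 (1.12 to 2.12), and with 50 CPM added it was just under the fold. Sox17 showed a like order at 55.0, 35.5 and 70.6 CPM, but neither step was past the fold, and its E11.5 and E14.5 intervals overlapped (40.3 to 73.4 and 24.4 to 49.8 CPM). Thinned to equal depth, Sox17 was found in 5.0%, 8.0% and 14.9% of endothelial cells, so its order from E11.5 to E14.5 turned, with overlapping intervals (1.38 to 12.3% and 4.20 to 13.6%).

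The ligands Vegfa and Vegfb were lower in endothelial than in other cells, and the receptor Flt4 and the co-receptor Nrp1 were higher. Vegfa, the main ligand, stood at 5.98 against 24.7 CPM at E11.5, 11.8 against 42.9 at E14.5 and 13.6 against 52.4 at E16.5. Vegfb stood at 25.1 against 76.8 CPM, 30.1 against 68.9 and 24.7 against 79.0, and was past the fold at E11.5 and E16.5. Vegfc, the ligand of the third receptor Flt4, was higher in endothelial cells at E11.5 (26.3 against 6.11 CPM), stood at 10.7 against 4.43 CPM at E14.5 and 21.3 against 3.99 CPM at E16.5, and was not ranked at the later stages, though its log2 ratio at E16.5 was 1.16. Thinned to equal depth, Vegfc was found in none of the endothelial cells of E11.5 (upper bound 4.51%) and in 1.49% of mesenchymal cells. Flt4 itself stood at 61.0, 47.3 and 68.0 CPM, beside under 0.4 CPM in other cells. The co-receptor Nrp1 stood at 177, 234 and 233 CPM in endothelial cells and at 25.9, 30.5 and 7.83 CPM in other cells, so the ratio at E16.5 (3.77) was the largest of the 3 (2.38 and 2.59 before). Nrp2, the other co-receptor, differed less at the later stages, at 121, 179 and 155 CPM against 39.7, 111 and 137 CPM. Of the 8 genes of the list, 4 were higher and 2 lower at E11.5, 2 higher and 1 lower at E14.5, and 3 higher and 2 lower at E16.5.

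The Tie receptors differed between stages by less than the fold. Tek, the angiopoietin receptor, stood at 70.6, 79.5 and 84.2 CPM, Tie1 at 101, 131 and 135 CPM, and the phosphatase Ptprb, which acts on Tek, at 105, 98.8 and 93.5 CPM. Other cells held each of these below 0.6 CPM. The ligand Angpt1 was at or near the detection limit in endothelial cells (4.79, 4.30 and 7.65 CPM) and stood at 4.16, 31.6 and 55.0 CPM in other cells. Apln, the apelin ligand and a gene of sprouting endothelium, stood at 34.7, 39.7 and 52.7 CPM and its receptor Aplnr at 117 CPM (95.2 to 143), 114 CPM (93.2 to 138) and 178 CPM (154 to 204). The E16.5 interval of Aplnr lay above both others, with a log2 ratio of 0.60 (0.28 to 0.92) from E14.5, which is under the fold. Of the 7 genes of the list, 5 were past the fold upward at every stage and Angpt1 was past it downward at E14.5 and E16.5, and the medians of the 7 were 2.97, 3.13 and 3.19.

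Notch receptors of endothelium were likewise raised. Notch1 stood at 147, 97.8 and 119 CPM against 13.4, 26.6 and 23.5 CPM in other cells, and Notch4 at 63.4, 30.1 and 59.5 CPM against 2.27, 0.969 and 1.62 CPM. Notch2 was the reverse, past the fold downward at each stage. The ligand Dll4 stood at 32.3, 27.9 and 45.9 CPM in endothelial cells and at most at 0.206 CPM in others, though its counts were too few for it to be ranked before E16.5. Of 11 listed genes, 6, 3 and 4 were higher at the successive stages, with medians of 1.07, 0.27 and 0.56. The target gene Hey1 was nearly level in endothelial cells (44.3, 41.9 and 50.2 CPM), while in other cells it stood at 3.62 CPM at E11.5 and at 33.1 and 26.4 CPM later.

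Of 14 arterial genes, 10, 8 and 9 were higher in endothelial cells at the successive stages, and none was lower. Gja4, a gap junction protein of arteries, stood at 59.8 CPM at E11.5 (44.4 to 78.8), 74.1 at E14.5 (57.7 to 93.8) and 131 at E16.5 (111 to 153), with other cells at most at 1.16 CPM. The E16.5 interval lay above both earlier ones, and the ratio from E11.5 to E16.5 was 1.01 (0.60 to 1.43). At E16.5, 118 Gja4 UMIs came from 16 cells of 1 sub-cluster described below, at 884 CPM against 34.5 CPM in the other endothelial cells. The counting interval does not cover how many such cells were caught at a stage. Gja5, a second arterial gap junction gene, stood at 28.7, 27.9 and 45.9 CPM with overlapping intervals. Of 8 venous genes, 1 of which the rule used, 5, 4 and 4 of the other 7 were higher. Nr2f2, a factor of veins, did not set endothelial cells apart at E11.5 (176 against 225 CPM in other cells) and stood at 90.2 against 40.3 CPM at E14.5 and 118 against 89.8 CPM at E16.5. Of 11 genes of tip cells and sprouting, 6, 5 and 6 were higher. Among these Kcne3, a potassium channel subunit, stood at 170, 171 and 170 CPM, with other cells at most at 1.16 CPM.

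Lymphatic markers were mostly at or near 0. Ccl21a had no UMI at any stage, Lyve1 only 0.850 CPM at E16.5, and Prox1, the defining factor of lymphatic endothelium, 3.59, 3.22 and 4.25 CPM, none above 5 counts. Mmrn1, an extracellular protein of lymphatic vessels and platelets, stood at 69.4 CPM at E11.5 (52.7 to 89.7), had no UMI at E14.5 and stood at 27.2 CPM at E16.5 (18.6 to 38.4). Against the level that 3 counts would give, it was at least 21.5-fold lower at E14.5 than at E11.5 and at least 8.44-fold lower than at E16.5. Mmrn1 had no UMI in the other cells of the E14.5 library either, so the 0 held for the whole library. Clec1b, a receptor of platelets, stood at 121, 15 and 0.850 CPM. At E11.5 the platelet gene Pf4 was at 288 CPM, held by 6 of the 109 cells, and the megakaryocyte list at 331 CPM, against 22.6 and 31.5 CPM later. In the 103 cells without a Pf4 UMI, Mmrn1 was at 68.9 CPM and Clec1b at 119 CPM, beside 75.5 and 136 CPM in the 6 cells with one, whereas Itga2b, a platelet integrin, was at 2.60 CPM beside 272.

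Genes of the vascular basement membrane, the sheet of matrix under the endothelium, were raised almost without exception. Of 12 listed, 11 were higher at every stage, with medians of 3.40, 2.43 and 2.79. Col4a1, a chain of collagen IV, stood at 1179 CPM at E11.5, 1612 CPM at E14.5 and 2174 CPM at E16.5, against 95.5, 166 and 134 CPM in other cells. Its intervals did not overlap between stages (1107 to 1255, 1532 to 1696 and 2090 to 2260 CPM). Sparc, a matrix binding protein, stood at 1018, 1691 and 2316 CPM, and the ratio of 1.18 (1.07 to 1.29) from E11.5 to E16.5 was smaller than the 2.44 of the other cells.

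Junction genes divided more evenly. Of 11 listed, 5, 4 and 6 were higher at the successive stages, with medians of 0.79, 0.67 and 1.05, and 1 was lower at E11.5 (Cdh2) and 1 at E16.5 (Gja1). Cldn5 stood at 140, 174 and 243 CPM and Esam at 138, 208 and 313 CPM. Esam was 1 of 2 pan-endothelial genes past the fold from E11.5 to E16.5, at 1.13 (0.84 to 1.42), the other being Clec14a. For the bone morphogenetic protein (BMP) and TGF-beta pathways, of 13 listed genes the receptors Acvrl1, Eng and Tgfbr2 were higher at every stage and Id2, a target, was lower at every stage. Acvrl1 stood at 35.9, 34.4 and 38.3 CPM against 2.12, 2.57 and 3.42 CPM in other cells. In all, 4 genes were higher and 1 lower at E11.5, and 3 were higher and 2 lower at both later stages, with medians of 0.18, -0.16 and -0.02.

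Genes that respond to blood flow were led by Klf2, a factor induced by shear stress, at 117, 114 and 188 CPM against 2.33, 5.51 and 12.4 CPM in other cells. Of 7 listed, 5 were higher at each stage and none was lower. Of 6 leukocyte adhesion genes, 2, 2 and 3 were higher at the successive stages and none was lower. Icam1 and Icam2 were higher at every stage. Sele, which captures leukocytes on activated vessels, had no UMI at E11.5, stood at 3.22 CPM at E14.5 and reached 31.5 CPM at E16.5 (22.1 to 43.4), with no UMI in the other cells of any stage. Of 6 genes of antigen presentation, 2 were higher at every stage, and H2-T23 was lower at E16.5 (log2 ratio -1.16). B2m stood at 144, 243 and 292 CPM and H2-D1 at 20.3, 39.8 and 83.3 CPM, and H2-D1 was past the fold from E11.5 to E16.5 at 1.62 (1.07 to 2.16).

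Lists outside endothelial function were described as well. None of 10 cell cycle genes was past the fold in either direction at any stage, with medians of -0.26, -0.02 and -0.12. Thinned to equal depth, the proliferation gene Mki67 was found in 41.2%, 26.7% and 19.8% of endothelial cells and in 47.4%, 25.4% and 18.7% of mesenchymal cells. Of 13 glycolysis genes, 2 were higher at E11.5 and none later, and Hk2, a hexokinase, was lower at each stage. Of 8 haematopoietic genes, 1 was higher at E11.5 (Itga2b), 2 at E14.5 (Kit and Mecom) and 1 at E16.5 (Mecom). None was lower at E11.5, while 2 were at E14.5 (Runx1 and Cd44) and 3 at E16.5 (Runx1, Cd44 and Myb). At E11.5 Itga2b was far higher in the few cells with a Pf4 UMI than in the rest, as given above. Of 9 immediate early and stress genes, 4, 2 and 2 were higher, and Hspa1a and Hspa1b were lower at E16.5.

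**Figure D2:**
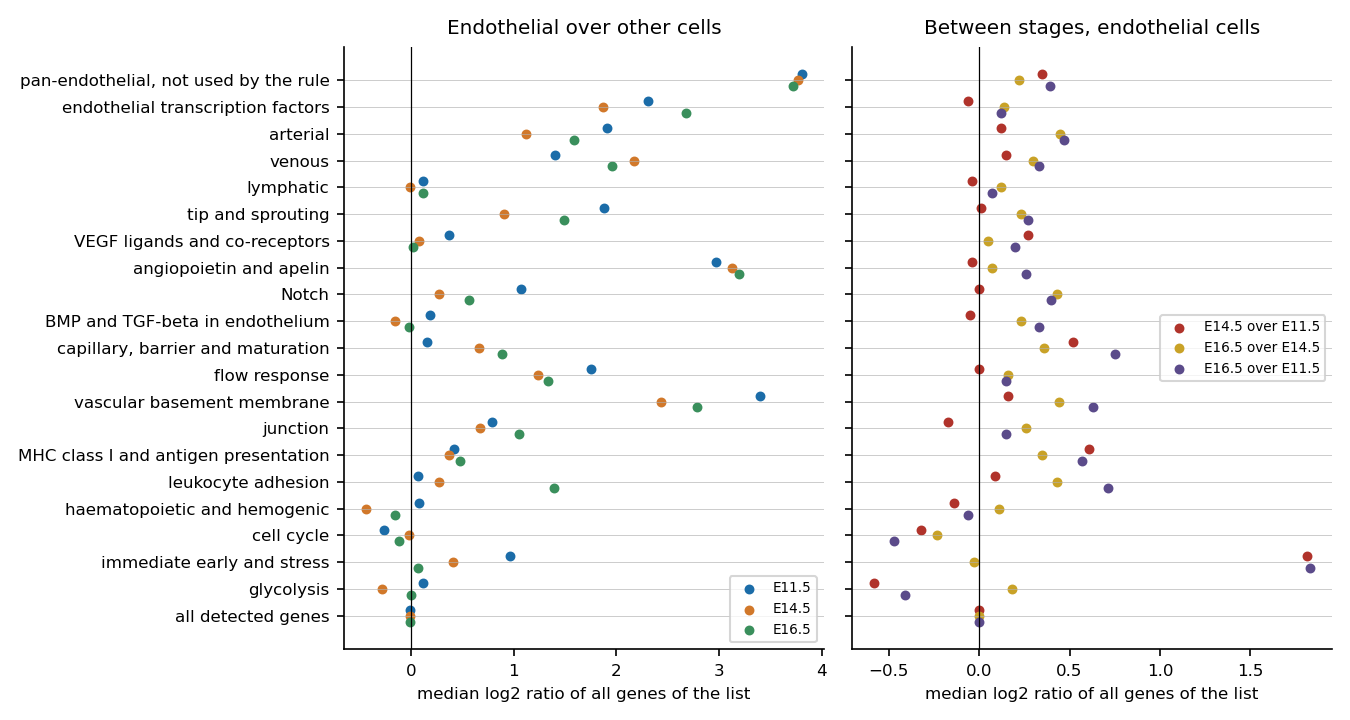
Median log2 ratio of all genes of each list that the rule did not use, for endothelial over other cells at each stage (left) and between stages within endothelial cells (right), with all detected genes at the bottom. Points are medians without error bars. On the left the pan-endothelial list stands at 3.72 to 3.81 and the cell cycle list at -0.26 to -0.02, and on the right the capillary list stands at 0.52 and 0.75 over E11.5.

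Between E11.5 and E14.5, 80 of 4581 ranked genes stood at least 1 log2 unit higher in endothelial cells at E14.5 (1.75%) and 83 lower (1.81%). Between E14.5 and E16.5 the numbers were 38 (0.752%) and 14 (0.277%) of 5054, and between E11.5 and E16.5 they were 157 (3.06%) and 91 (1.78%) of 5123. The median ratio of all ranked genes was -0.12, 0.05 and -0.07 for these pairs, so the ratios between E11.5 and E14.5 are read against a shift of -0.12. Without the sub-clusters led by mesenchyme genes, 65 genes stood higher and 78 lower at E14.5 than at E11.5. The comparisons share their stages, so their counts are not independent of each other. With no minimum, 1.38% of genes were higher and 1.38% lower for the first pair, 0.641% and 0.263% for the second, and 2.22% and 1.29% for the third, and the counts of lists below again cover all listed genes. The lists that mark endothelium as a whole moved little: of 17 pan-endothelial genes none was past the fold between neighbouring stages, with medians of 0.35 and 0.22.

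Of 17 genes of capillaries, of the barrier and of maturation, 6 were higher at E14.5 than at E11.5 (Rgcc, Gpihbp1, Aqp1, Cav1, Igfbp7 and Sparcl1) and Slc2a1 was lower, with a median of 0.52. Between E14.5 and E16.5, 3 (Gpihbp1, Aqp1 and Igfbp7) were higher, with a median of 0.36. From E11.5 to E16.5, 7 were higher and Slc2a1 lower, with a median of 0.75.

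Rgcc, a cell cycle regulator found in capillary endothelium, stood at 15.6 CPM at E11.5 (8.28 to 26.6), 219 at E14.5 (190 to 251) and 232 at E16.5 (205 to 261). The E11.5 level was far below both later levels, which overlapped, and other cells held 7.16, 21.1 and 7.13 CPM. The log2 ratio from E11.5 to E14.5 was 3.16 (2.61 to 3.68) in endothelial cells and 0.86 in other cells. Thinned to equal depth, Rgcc was found in 2.50%, 34.0% and 31.4% of endothelial cells and in 1.49%, 5.04% and 2.13% of mesenchymal cells, and at E11.5 the interval of the endothelial share (0.304 to 8.74%) held the mesenchymal share.

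Gpihbp1, which anchors lipoprotein lipase on capillaries, stood at 13.2 CPM at E11.5 (6.57 to 23.5), 61.2 at E14.5 (46.4 to 79.3) and 168 at E16.5 (146 to 194). The 3 intervals did not overlap, and other cells held at most 0.798 CPM. Its log2 ratio was 1.62 (0.99 to 2.20) for the first step and 1.32 (0.94 to 1.71) for the second. With 50 CPM added the second step was under the fold. Thinned, it was found in 1.25%, 9.33% and 26.4% of endothelial cells and in none of the mesenchymal cells, of which 3488, 2835 and 2157 were deep enough. The thinned intervals of E11.5 and E14.5 overlapped (0.0316 to 6.77% and 5.20 to 15.2%).

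Cav1, the coat protein of caveolae, showed the same order at 64.6, 192 and 383 CPM (48.5 to 84.3, 165 to 223 and 349 to 420), against 0.129, 6.71 and 8.73 CPM in other cells. Sparcl1, a matrix protein related to Sparc, stood at 139, 358 and 484 CPM against 10.1, 9.99 and 26.7 CPM. Igfbp7, a secreted binding protein of vessels, stood at 8.37, 82.7 and 252 CPM. For Igfbp7 the other cells held 2.76, 74.2 and 85.4 CPM, with log2 ratios of 2.34 in endothelial and 2.72 in other cells for the first step and of 1.5 and 0.18 for the second. Thinned, Igfbp7 was found in 2.50%, 7.33% and 33.9% of endothelial cells and in 0.602%, 18.1% and 28.1% of mesenchymal cells, so at E14.5 its endothelial share (3.72 to 12.7%) lay below the mesenchymal one and overlapped that of E11.5. Slc2a1, the glucose transporter Glut1, ran the other way, at 142, 59.1 and 51.9 CPM, with a ratio of -1.14 (-1.56 to -0.72) from E11.5 to E14.5, while in other cells it stood at 14, 30.4 and 23.5 CPM.

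**Figure D3:**
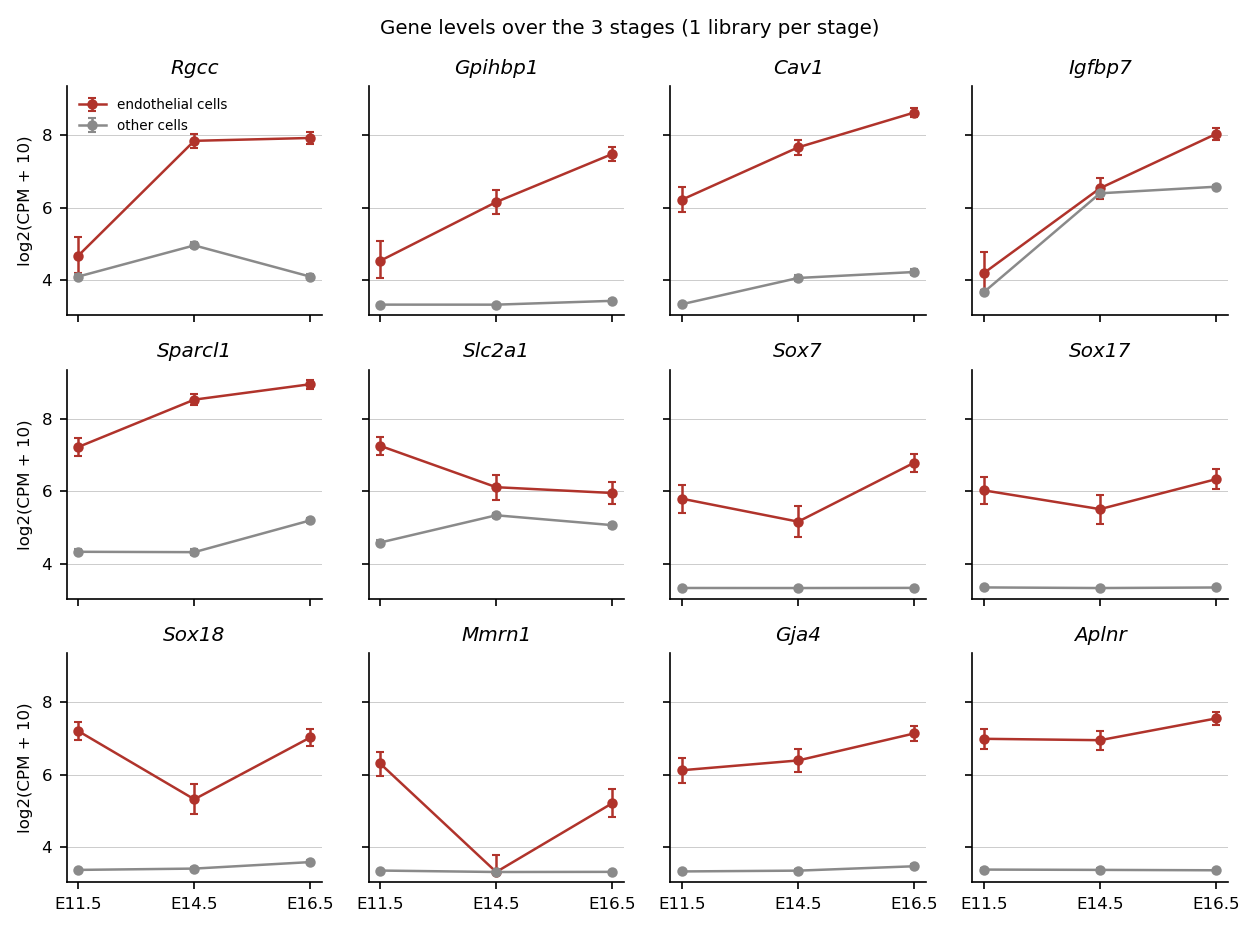
Levels of 12 genes over the 3 stages as log2 of CPM with 10 added, in endothelial cells (red) and other cells (grey), with 1 library per stage and exact 95% Poisson intervals as bars. Rgcc, Gpihbp1, Cav1, Igfbp7 and Sparcl1 are lowest at E11.5, Slc2a1 is highest there, Sox7, Sox17, Sox18 and Mmrn1 are lowest at E14.5, and lines join the stages for reading only.

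Outside these lists, the largest ratios from E11.5 to E14.5 included the adult globin gene Hbb-bs (7.56). Before thinning, Hbb-bs had a UMI in 13.8% and 68.1% of endothelial cells at these stages, and in 8.75% and 66.6% of mesenchymal cells. Also among the largest were the membrane protein genes Ifitm3 (3.58) and Bst2 (2.71), Lgals9 (2.78), a galectin, and Isg15 (2.67), a ubiquitin-like protein. Bst2 stood at 29.9, 250 and 164 CPM in endothelial cells against 2.04, 10.4 and 6.15 CPM in other cells, whose own ratio was 0.76. Col1a1 (2.95), Sostdc1 (2.95), Penk (2.93) and Inhba (2.73) were also among the 10 largest. These genes were more abundant in the other cells of E14.5, where Col1a1 stood at 392 CPM, Sostdc1 at 344, Penk at 228 and Inhba at 242, than in the endothelial cells, where they stood at 114, 76.3, 75.2 and 64.5 CPM. Within the endothelial cells of E14.5 the sub-cluster led by mesenchyme genes held Col1a1 at 418 CPM against 18.4 in the rest, Sostdc1 at 297 against 7.06 and Penk at 283 against 9.88. Without those sub-clusters the ratios were 1.5 for Col1a1, 0.58 for Sostdc1, 0.99 for Penk and 0.69 for Inhba.

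The lowest ratios over the same step included the embryonic globins Hbb-bh1 (-4.53) and Hba-x (-2.44), Mmrn1, mt-Nd3 (-2.78), Clec1b (-2.39) and the metal binding gene Mt1 (-2.23), and the remaining ones of the 10 were Meis2 (-2.34), Zfhx4 (-1.96), Sox18 and Depp1. Meis2 and Zfhx4, both transcription factors, stood at 279.5 and 314.5 CPM in the E11.5 sub-cluster led by mesenchyme genes against 17.3 and 10.1 CPM in the other endothelial cells. Without those sub-clusters the ratio was -0.94 for Meis2, under the fold, and -1.01 for Zfhx4. The globins and mt-Nd3 were as low in other cells (-5.12, -2.65 and -2.60). Of 9 immediate early and stress genes, 8 were higher at E14.5, with a median of 1.81, and each of these 8 had a larger ratio in other cells, with Fos at 2.96 and Jun at 2.45 against 1.81 and 1.90 in endothelial cells. Of 13 glycolysis genes 2 were lower, with a median of -0.58.

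From E14.5 to E16.5, Bhlhe40, a transcriptional repressor, had the largest ratio with 10 CPM added, at 1.95 (1.30 to 2.43), but with 50 CPM added it stood at 0.81, under the fold. It stood at 3.59, 4.30 and 45.1 CPM, against 0.364, 14.3 and 10.3 CPM in other cells. Samsn1, an adaptor protein, was highest at E14.5, at 103, 237 and 61.2 CPM, with a ratio of -1.80 (-2.15 to -1.45) into E16.5. Other cells held Samsn1 at most at 3.32 CPM. The other large ratios of this step were those of Sox18, Sox7, Igfbp7 and Gpihbp1, described above, and of Anxa1 (1.32), Pfn2 (1.28), Rflnb (1.26), mt-Nd3 and mt-Nd4l. With 50 CPM added Anxa1 (0.80), Pfn2 (0.79) and Rflnb (0.78) were under the fold. Pfn2, a profilin, stood at -0.15 in cells with at least 3 rule genes and at -0.23 at equal depth, so its direction changed with these settings. Without the sub-clusters led by mesenchyme genes it stood at 0.42, in the same direction but under the fold. The remaining low ratios were those of the histone gene Hist1h4d (-1.23) and those of globins, which were lower in other cells as well. Penk (-2.14), Inhba (-1.38) and Zeb2 (-1.26) were also among them and were lower in other cells too. At E14.5 Penk stood at 283 CPM in the sub-cluster led by mesenchyme genes, against 9.88 CPM in the other endothelial cells. From that lower level even a fall to no UMI would be under the fold with 10 CPM added. From E11.5 to E16.5 the 10 largest ratios were those of Hbb-bs, Igfbp7, Ifitm3, Anxa1, Rgcc, Col1a1, Sostdc1, Gpihbp1, Ier3 and Tmem176b, and the 10 lowest those of Hbb-y, Hba-x, Hbb-bh1, Clec1b, Pf4, Meis2, Mt1, Hist1h1b, Nnat and Igf2bp1. Several of these changed when the sub-clusters led by mesenchyme genes were left out. Col1a1 went from 3.10 to 0.71, Sostdc1 from 3.01 to 1.17, Meis2 from -2.85 to -1.45 and Nnat from -2.42 to -0.49. The sub-cluster of E16.5, with 14 cells, held Col1a1 at 626 CPM against 6.33 in the other endothelial cells, and that of E11.5 held Nnat at 454 CPM against 18.8.

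The endothelial cells of a stage were not uniform. Clustered among themselves, they fell into 3, 3 and 4 sub-clusters at the successive stages, which are named here by their leading genes. A sub-cluster led by mesenchyme genes held 43 cells at E11.5 (Gpc3, Ptn, Prrx1), 40 at E14.5 (Ptn, Lgals1, Col3a1) and 14 at E16.5 (Col8a1, Vcan, Sfrp2). At E11.5 it held the pan-endothelial genes at 971 CPM against 3112 in the other endothelial cells, and the mesenchyme markers at 1894 CPM against 83.7. At E14.5 these were 1341 against 4089 CPM and 2879 against 91.7 CPM, and at E16.5 they were 919 against 4792 CPM and 3428 against 57.0 CPM. The deepest of the 14 cells at E16.5, with 72830 UMIs, 1 pan-endothelial gene and 9 mesenchyme markers, weighed most in these summed levels. Col8a1 and Sfrp2 had a UMI in only 5 and 6 of the 14 cells. The median depth of this sub-cluster was below that of its stage at E11.5 (2214 against 4441 UMIs) and above it at E14.5 (5016.5 against 3864) and E16.5 (10250 against 6020.5). Cells that hold RNA of more than 1 cell (doublets) were not removed, and whether they make up these sub-clusters was not tested. The highest 5% of Scrublet doublet scores of all cells took in 10, 30 and 11 endothelial cells at the successive stages (9.17%, 16.2% and 8.59% of them).

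**Figure D4:**
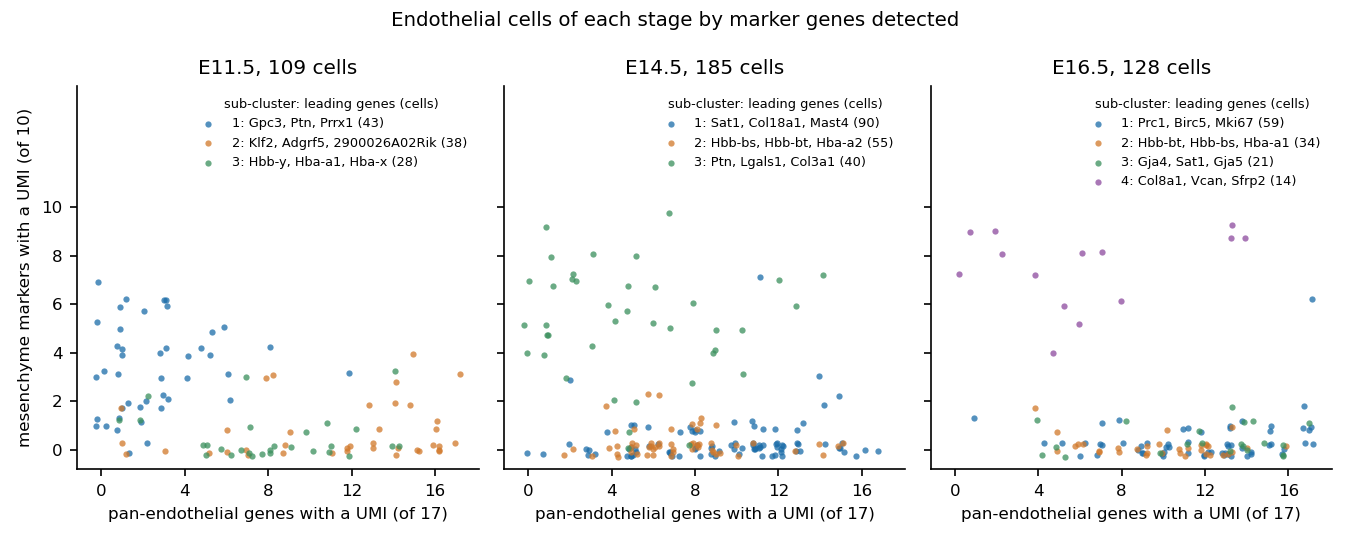
Each point is 1 endothelial cell, placed by how many of 17 pan-endothelial genes (x axis) and of 10 mesenchyme markers (y axis) had a UMI, moved slightly at random so that points do not hide each other, and coloured by sub-cluster. The sub-clusters led by Gpc3 at E11.5, by Ptn at E14.5 and by Col8a1 at E16.5 lie highest, and most other cells lie near 0 mesenchyme markers.

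A sub-cluster led by haemoglobin genes held 28, 55 and 34 cells and kept the pan-endothelial genes at 2654, 3612 and 4576 CPM. Most of its cells held little haemoglobin, with medians of 0.212%, 0.127% and 0.0332% of UMIs. The globin gene Hbb-bt had a UMI in 8, 18 and 8 of them, and haemoglobin exceeded 5% of UMIs in 3, 7 and 2 of all endothelial cells. At E11.5 the remaining 38 cells were led by Klf2 and Adgrf5, with a median of 9440.5 UMIs. At E14.5 the remaining 90 cells were led by Sat1 and Col18a1 and had Gja4 among their 10 leading genes. At E16.5, 59 cells were led by the cell cycle genes Prc1, Birc5 and Mki67, and 21 were led by Gja4, Sat1 and Gja5. This last group held the arterial list at 3785 CPM against 640 in the other endothelial cells, the flow list at 1552 against 426 CPM and the cell cycle list at 60.0 against 2171 CPM. Stress and immediate early genes were also among its leading genes, with Ppp1r15a at 892 against 85.3 CPM, Dusp1 at 794 against 110 and Fos at 1671 against 307. These lists overlap the leading genes of the clusters, so the values describe the groups and test nothing.

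To describe arterial genes without clustering, the cells with a UMI of Gja4 or Gja5 were set beside those without. They numbered 17 of 109 at E11.5, 35 of 185 at E14.5 and 32 of 128 at E16.5. At E11.5 they were much deeper (median 11079 against 3425.5 UMIs), at E14.5 somewhat deeper (5045 against 3721.5) and at E16.5 no deeper (5522 against 6103.5). Hey1, a Notch target of arteries, was higher in cells with Gja4 or Gja5 at all 3 stages, with log2 ratios of 2.13 (1.30 to 2.90), 1.79 (1.0 to 2.53) and 1.98 (1.33 to 2.60). Efnb2, the arterial ephrin, was higher by 1.04 (0.61 to 1.48), 1.34 (0.84 to 1.83) and 1.53 (1.16 to 1.90). Dll4 stood at 64.7 against 14.8 CPM, 62.4 against 18 and 103 against 27.1. The cells with Gja4 or Gja5 also held more of the 17 pan-endothelial genes, at 3624 against 2269 CPM, 4087 against 3244 and 5518 against 3554. The mesenchyme markers stood at 102 against 551.5 CPM, 821 against 739 and 289 against 850. The split was therefore repeated without the sub-clusters led by mesenchyme genes, where the mesenchyme markers stood at most at 174 CPM on either side. The ratios of Hey1 were then 2.44 (1.46 to 3.25), 2.63 (1.72 to 3.45) and 3.38 (2.57 to 3.97), those of Efnb2 1.18, 1.56 and 1.49, and those of Dll4 1.31, 1.44 and 1.41, all with intervals above 0. Pan-endothelial genes still differed there, by 0.41, 0.29 and 0.39 on the log2 scale, and the part of this difference in the arterial ratios was not tested.

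Other genes were set beside the same split. Sox17, an arterial SoxF factor, stood at 61.3 against 51.7 CPM at E11.5, 48.0 against 31.8 at E14.5 and 144 against 46.3 at E16.5, and only the last ratio (1.46, 0.88 to 2.02) had an interval above 0. Unc5b, a netrin receptor, was higher at all 3 stages, with ratios of 1.31 (0.62 to 2.0), 1.19 (0.43 to 1.91) and 2.58 (1.95 to 3.19). Edn1, endothelin, stood at 17 against 1.85 CPM, 14.4 against 38.8 and 127 against 16.9, so its order at E14.5 was the reverse, with an interval that held 0 (-2.01 to 0.18). Nr2f2 was lower in cells with Gja4 or Gja5 at every stage, by -0.55 (-1.07 to -0.05), -1.60 (-2.57 to -0.65) and -0.80 (-1.44 to -0.20). Mki67 was lower at E11.5 (-0.97, -1.39 to -0.56), and at the later stages its intervals held 0. Without the sub-clusters led by mesenchyme genes the ratios of Unc5b (1.40, 1.33 and 2.96) and Nr2f2 (-0.58, -1.68 and -0.96) kept their directions with intervals that did not hold 0, and Mki67 was lower at E16.5 too (-0.62, -1.15 to -0.11).

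**Figure D5:**
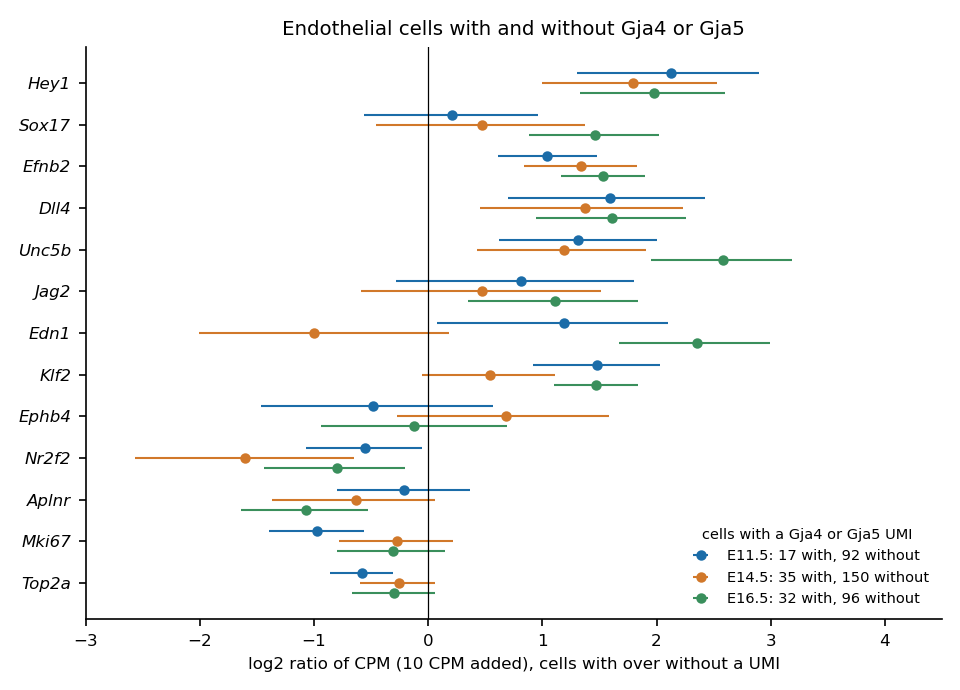
Log2 ratio of CPM (10 CPM added) in endothelial cells with a UMI of Gja4 or Gja5 over those without, for 13 genes at each stage, with 95% counting intervals as lines. Hey1, Efnb2, Dll4 and Unc5b lie right of 0 at all 3 stages, and Nr2f2 lies left of 0 at all 3.

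The apelin receptor was set against the same genes. Cells with an Aplnr UMI numbered 40, 72 and 72. At E11.5 they held Gja4 at 60.6 CPM, the same level as cells without Aplnr (58.3 CPM). At E14.5 they held it at 29.0 CPM against 116, and at E16.5 at 16.2 CPM against 328, a log2 ratio of -3.69 (-4.25 to -3.09). Gja5 had no UMI in the 72 Aplnr cells of E14.5 or in the 72 of E16.5, which allows up to 4.17% of such cells to hold a UMI of it and sets no limit on expression below that, while cells without Aplnr held it at 54.0 and 125 CPM. At E11.5 both groups held Gja5, at 18.4 and 48.0 CPM. Nr2f2 was higher in cells with Aplnr at each stage, with ratios of 0.54 (0.03 to 1.06), 0.85 (0.26 to 1.44) and 1.21 (0.66 to 1.78). At E16.5 cells with Aplnr also held more Mki67 (228 against 78.4 CPM) and Top2a (381 against 161 CPM), whereas at E11.5 and E14.5 the intervals of both ratios held 0. Mesenchyme markers were lower in cells with Aplnr at each stage (127 against 891 CPM, 439 against 1055 and 222 against 1550). Without the sub-clusters led by mesenchyme genes, Gja4 stood at 16.2 against 521 CPM at E16.5, Nr2f2 had ratios of 0.95, 0.50 and 1.35, of which that of E14.5 had an interval that held 0 (-0.16 to 1.18), and Top2a was higher in cells with Aplnr at E11.5 as well (0.52, 0.17 to 0.88). Whether these splits differ between stages was not tested.

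Sprouting and capillary genes were split in the same way. Cells with an Apln UMI (18, 26 and 35) held more Kcne3 at each stage, with ratios of 1.25 (0.79 to 1.71), 0.69 (0.21 to 1.16) and 0.79 (0.40 to 1.17). Their Mki67 level was 333 against 314 CPM at E11.5, 96.9 against 246 at E14.5 and 130 against 198 at E16.5, lower than in the rest at the later stages. Esm1, another gene of tip cells, was not apart, with all 3 intervals holding 0. Cells with a Gpihbp1 UMI numbered 9, 39 and 63, and held more Cav1 than the rest at E14.5 (261 against 161 CPM) and at E16.5 (425 against 326 CPM). Without the sub-clusters led by mesenchyme genes these orders did not all remain. Kcne3 still ran higher in cells with Apln, but the interval at E14.5 held 0 (0.36, -0.13 to 0.83). Cav1 stood at 274 against 212 CPM at E14.5 and at 435 against 512.5 CPM at E16.5 in cells with and without Gpihbp1, and both intervals held 0.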

How the data were processed

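Single-cell RNA was measured with 10x 3′ droplet libraries from wild type NMRI embryos. The authors' deposited matrices hold raw UMI counts per gene and barcode, 1 matrix per stage, made with Cell Ranger 4.0.0 on build mm10 according to the submitters' processing notes; aligner settings beyond this are not given in the sources used here.

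Barcodes under 700 genes or over 20% mitochondrial UMIs were dropped, and endothelial cells were chosen by the rule given in the opening. The members and gene lists were chosen with earlier results of these data known. Counts were summed per stage and group and scaled to CPM. Log2 ratios have 10 CPM added to both sides, with intervals from exact Poisson limits combined by squares. Genes were ranked with a UMI in at least 10% of the cells of either group and at least 50 counts, the 15 rule genes aside. With 1 sample per stage no test was run. The text names the 15 largest ratios per stage, the 10 largest and 10 smallest between stages, and some members of 20 lists. Other genes, such as sub-cluster leaders and those of the closing observations, were chosen after their values were seen. Shares of cells are also given with each cell thinned to 2000 UMIs. Sub-clusters used Scanpy 1.11.5 and igraph 0.11.9 (Leiden, resolution 0.4, 2000 variable genes, 20 components, 15 neighbours). Doublets were not removed, and as an alternative the highest 5% of Scrublet scores were left out. Python 3.11.15, SciPy 1.17.1 and pandas 2.3.3 were used. The ratio and its interval were checked on simulated Poisson counts, which the interval assumes and which hold no spread between cells. The thinning was checked only for its total of 2000 UMIs a cell. Promoter windows came from RefSeq on GRCm38.p6, and gene positions from the GENCODE vM21 annotation. List counts with no minimum were added after the data were seen. The alternatives were other rule and cell filters, equal depth, other added CPM, other count minimums, totals without haemoglobin and mitochondrial genes, and centred ratios. Intervals cover counting error only.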

Additional observations from a re-analysis of the deposited data

Results flagged for a closer look

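The log2 ratio of endothelial over other cells of 3 genes stood past the fold in opposite directions at 2 stages. Foxd2os, a noncoding RNA beside Foxd2, was at -1.05 at E11.5 (5.98 against 23.1 CPM) and 1.53 at E14.5 (26.9 against 2.72 CPM). Lgalsl, a galectin-related gene, was at 1.02 at E11.5 (39.5 against 14.4 CPM) and -1.08 at E16.5 (13.6 against 40.0 CPM). Stmn2, a neuronal stathmin, was at 2.50 at E11.5 (49.0 against 0.450 CPM) and -1.04 at E16.5 (25.5 against 62.9 CPM). For Foxd2os and Stmn2 the level in other cells also changed by a large factor between the stages. With 1 sample per stage these differences were not tested.

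Barcodes that failed the cell filter, and so entered no comparison, also met the endothelial rule. There were 36 of 2135 at E11.5, 41 of 2101 at E14.5 and 24 of 1208 at E16.5, with median depths of 716.5, 813 and 826.5 UMIs.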

How the results depend on the processing

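No paired analysis was possible because each stage is 1 matrix whose barcodes do not name the samples, so no replicate could be left out or blocked either. Of 21 recomputed shares 18 stayed within the counting interval, and of 180 recomputed counts past the fold 133 stayed within 1.5 times. Of 1575 recomputed ratios of named genes, 346 moved outside their counting intervals and 2 reversed, among them 94 of 105 moved with 50 CPM added, 76 with 1 CPM, 61 without the sub-clusters led by mesenchyme genes and 47 at equal depth. Of 1179 recomputed medians of lists, 84 moved by 0.5 or more and 2 reversed. With at least 3 rule genes the endothelial share at E11.5 was 1.29%, and at equal depth it was 1.2% at E11.5 and 2.55% at E14.5. Genes higher in endothelial cells numbered 271, 217 and 268 at the 3 stages with 50 CPM added, and 452 at E11.5 at equal depth. Genes lower in them numbered 711 at E11.5 and 903 at E16.5 with 1 CPM added, 85, 76 and 114 with 50 CPM, 255 at E11.5 and 305 at E16.5 at equal depth, 471 at E14.5 with a minimum of 20 counts, and 799 at E16.5 without cells that hold 4 mesenchyme genes. From E11.5 to E14.5, genes higher and lower numbered 122 and 166 with 1 CPM added, 37 and 14 with 50 CPM, 156 and 164 with a minimum of 20 counts, 24 and 14 with 200 counts, and 34 and 27 at equal depth, and 51 were lower with centred ratios. From E11.5 to E16.5, lower genes numbered 159 with 1 CPM added, and higher and lower genes 50 and 14 with 50 CPM, 277 and 154 with 20 counts, 41 and 17 with 200 counts, and 58 and 35 at equal depth, and 52 were lower with centred ratios. From E14.5 to E16.5 they were 76 and 28 with 1 CPM, 5 and 7 with 50 CPM, 85 and 24 with 20 counts, and 11 and 7 with 200 counts, with 15 higher at equal depth, 24 lower with at least 3 rule genes, and 9 lower without haemoglobin and mitochondrial genes in the total. The E14.5 to E16.5 ratio of Pfn2 went from 1.28 to -0.15 with at least 3 rule genes and to -0.23 at equal depth, the E16.5 median of the ranked angiopoietin and apelin genes to -2.05 at equal depth, where 1 gene stayed ranked, and the E14.5 median of the haematopoietic list from 2.04 over ranked genes to -0.44 over all its genes. The causes were not tested. The counts between stages thus rest on the added CPM, the count minimum and the depth. Gene by gene, the ratio of Rgcc from E11.5 to E14.5 ranged from 2.04 to 3.80, of Sox18 from -2.16 to -1.23 and of Gpihbp1 from E11.5 to E16.5 from 1.79 to 3.58, while from E14.5 to E16.5 the ratios of Sox7 (0.99), Gpihbp1 (0.97), Bhlhe40 (0.81), Anxa1 (0.80), Pfn2 (0.79) and Rflnb (0.78) fell under 1 with 50 CPM added. Leaving out cells with a Pf4 UMI, or the sub-clusters led by mesenchyme genes, was chosen after seeing the data and kept the counts of higher and lower genes within 1.5 times, except that 458 at E14.5 and 809 at E16.5 stood lower in endothelial than in other cells without those sub-clusters. With 109 to 185 cells per stage, genes of few cells or counts could not be ranked.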

Other observations

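Several genes known to respond to interferon differed between stages within the endothelium; Bst2, Lgals9, Ifitm3 and Isg15 were named by the rule and the others were chosen after their values were seen. Lgals9 stood at 4.79, 91.3 and 54.4 CPM in endothelial cells over the 3 stages in order, against 0.707, 4.36 and 2.42 CPM in other cells. Isg15 stood at 1.2, 61.2 and 23 CPM against 0.429, 3.62 and 1.80 CPM. Ifitm3 stood at 23.9, 396 and 331.5 CPM, but other cells held 19.97, 162 and 157 CPM. Ly6c1 had no UMI at E11.5 and stood at 27.9 and 65.5 CPM later, and Ly6e stood at 13.2, 52.6 and 122 CPM, against 27.0, 40.8 and 25.8 CPM in other cells. Ifit1 and Ifit3, which interferon also induces, held at most 1 UMI in endothelial cells at any stage. Since the genes were chosen with these values known, the order of the stages is a description only.

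Some imprinted genes, which are expressed from 1 parental copy, were picked after their values were seen, with no fixed list. They are no tally of such genes. Mest stood at 1227, 1096 and 1256 CPM in endothelial cells against 547, 132 and 162 CPM in other cells. Plagl1 stood at 458, 334 and 316 CPM against 95.9, 81.7 and 39.3 CPM. Grb10 stood at 541, 456 and 412 CPM against 358, 263 and 141 CPM, under the fold at E11.5 and E14.5. Peg3, Dlk1 and Meg3 were lower in endothelial cells at each stage, with log2 ratios between -2.28 and -0.89. Of genes chosen after their values were seen, 3 were lower at later stages in both groups of cells, with Hmga2 at 257, 134 and 64.6 CPM against 739, 290 and 124 CPM, Igf2bp1 at 153, 47.3 and 25.5 CPM against 182, 39.1 and 13.6 CPM, and Lin28b at 25.1, 3.22 and 2.55 CPM against 23.4, 0.447 and 0.309 CPM. The growth factor gene Igf2 did not follow this order, at 413, 490 and 269 CPM against 256, 344 and 167 CPM. All of these are values of 1 library per stage.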
